A study of Mus musculus with 24 samples.

Results

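The genes described here encode receptors for glutamate, GABA and acetylcholine. They were chosen by symbol alone, as every row whose name matched the patterns for the AMPA, kainate, delta, NMDA and metabotropic glutamate receptors, the GABA-A and GABA-B receptors, and the nicotinic and muscarinic acetylcholine receptors. The rule found 60 genes among the 26694 rows of the tables, of which 27 belong to the glutamate, 15 to the GABA and 18 to the acetylcholine receptors. Of the 60, 1 matched by its symbol although its product is not a receptor itself. RNA was measured in neural progenitor cells (NPCs) taken from the cortex of C57BL/6 mouse embryos at day 12, expanded with 10 ng/ml of the growth factor bFGF and 2% B27 supplement, and used at passage 3. In differentiation medium the cells received (+)-JQ-1, which blocks the acetyl-lysine pocket of BET bromodomain proteins, or (-)-JQ-1, its inactive mirror image. Crossing the 2 enantiomers with 2 concentrations (0.2 and 0.5 µM) and 2 times (12 and 24 h) makes 8 groups of 3 libraries, described as 3 independent NPC preparations. Every group was therefore in differentiation medium and exposed to a JQ-1 enantiomer, and no library of NPCs before treatment or without compound was used here.

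Glutamate and GABA act on ligand-gated ion channels and on G-protein-coupled receptors. AMPA, kainate and NMDA receptors are channels built of several subunits that let cations in when glutamate binds, while the metabotropic receptors signal through G proteins. GABA-A receptors are chloride channels assembled from alpha, beta and gamma or delta subunits, and GABA-B receptors are obligate pairs of Gabbr1 and Gabbr2. Nicotinic receptors are cation channels and muscarinic receptors are coupled to G proteins. In the developing cortex these receptors are made by neurons and also by progenitors, oligodendrocyte precursors and astrocytes, where they carry signals outside synapses.

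Promoter sequence is shown for 4 members whose changes frame the results, Gabbr1 and Chrna7, which were higher under (+)-JQ-1, and Chrna4 and Grik5, which were lower. Each is the 250 bases before the annotated start in RefSeq (GRCm38.p6), 5' to 3' on the gene's strand. Capitals mark the GC box, GGGCGG or its reverse CCGCCC. The Gabbr1 window lies at chr17:37045716-37045965 on the plus strand, that of Chrna7 at chr7:63212527-63212776, that of Chrna4 at chr2:181039178-181039427 and that of Grik5 at chr7:25072370-25072619, the last 3 on the minus strand.
Gabbr1: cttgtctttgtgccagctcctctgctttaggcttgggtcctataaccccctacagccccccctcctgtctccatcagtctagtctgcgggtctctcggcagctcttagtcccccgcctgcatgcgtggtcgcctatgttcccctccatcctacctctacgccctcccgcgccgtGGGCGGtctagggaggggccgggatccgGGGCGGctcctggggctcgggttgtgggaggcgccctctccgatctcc
Chrna7: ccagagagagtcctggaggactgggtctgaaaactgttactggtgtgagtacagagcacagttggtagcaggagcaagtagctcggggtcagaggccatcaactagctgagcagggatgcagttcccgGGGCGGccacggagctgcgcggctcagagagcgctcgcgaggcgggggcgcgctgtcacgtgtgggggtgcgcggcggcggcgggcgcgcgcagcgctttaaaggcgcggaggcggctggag
Chrna4: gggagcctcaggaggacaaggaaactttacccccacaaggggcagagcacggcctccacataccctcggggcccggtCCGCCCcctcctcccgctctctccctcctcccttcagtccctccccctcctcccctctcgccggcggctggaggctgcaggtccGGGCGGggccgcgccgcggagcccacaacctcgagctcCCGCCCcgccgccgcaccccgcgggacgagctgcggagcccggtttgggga
Grik5: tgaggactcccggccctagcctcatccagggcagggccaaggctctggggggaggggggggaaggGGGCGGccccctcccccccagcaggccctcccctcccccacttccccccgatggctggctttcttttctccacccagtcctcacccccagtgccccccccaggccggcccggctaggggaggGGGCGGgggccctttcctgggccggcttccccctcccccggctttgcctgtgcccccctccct
The GC box occurred 2 times in the Gabbr1 window, 1 time in that of Chrna7, 3 times in that of Chrna4 and 2 times in that of Grik5. GC content was 66% for Gabbr1, 67.2% for Chrna7, 74.4% for Chrna4 and 75.2% for Grik5. A GC box was in 21 of the 41 members with a promoter in that table (51.2%), against 32.9% of its 27025 promoters of the same length and 60.7% of the 8966 that belong to genes tested here. The TATA box, TATAAA on either strand, was in 4 of the 41 (9.76%), against 13% of all promoters and 5.83% of those of tested genes. Of the 41, 22 were not tested, and 9 of these held a GC box (40.9%) and 3 a TATA box (13.6%). The shares of all 41 are therefore not matched to those of tested genes. None of the 16 members with a promoter entry that changed (2 higher, 14 lower) held a TATA box. A GC box was in 2 of the 2 higher and 9 of the 14 lower (64.3%). A match describes letters in the window only, and the higher and lower genes shown here share the GC box.

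Levels are in FPKM, fragments scaled to transcript length and to the mapped total of the library, so genes can be compared per length. Of the 60 members, 27 reached 1 FPKM in at least 3 libraries and were tested, and 14 were at or above 1 FPKM in every library. Another 31 stayed under 1 FPKM throughout, 2 of them at 0 in every library, and 2 reached 1 FPKM in fewer than 3 libraries. Over the 12 libraries with (-)-JQ-1, Gabbr1 had the highest level, with a median of 48.7 FPKM (41.3 to 56.2). It was followed by the AMPA subunit Gria2 at 36.6 FPKM (30.7 to 40.4) and the kainate subunits Grik5 at 30.4 FPKM (26.1 to 44.0) and Grik3 at 19.3 FPKM (15.8 to 28). Gabbr1 was the only gene in that order whose range did not overlap that of the next. Gabbr2 (15.7 FPKM), Grik2 (11.2), Grid1 (11.1), Gria4 (9.91), Grin3a (9.84) and Chrna4 (7.25) were among the next by median.

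The question the matched comparisons address is what (+)-JQ-1 changed relative to its inactive enantiomer. Of the 27 tested members, 24 passed the test in at least 1 of the 4 comparisons, 21 of them lower and 3 higher under (+)-JQ-1 (limma on log2(FPKM + 1), Benjamini-Hochberg adjusted p under 0.05 over all 13801 tested genes). In the 0.2 µM, 12 h comparison, 3 members rose and 12 fell, 55.6% of those tested, where 27.9% of all genes were called, 8.23% higher and 19.6% lower. With 0.5 µM for 12 h, 3 rose and 17 fell (74.1%), beside 38.3% of all genes (12.2% higher, 26.1% lower). After 24 h of 0.2 µM, 2 rose and 13 fell (55.6%), beside 32.8% (11% higher, 21.8% lower). In the 0.5 µM, 24 h comparison, 3 rose and 17 fell (74.1%), beside 38.2% (13.7% higher, 24.5% lower). Lower calls thus made up a larger part of the tested members than of all genes in each of the 4 comparisons, a description that carries no test. The median log2 change of the tested members was -0.49, -0.63, -0.46 and -0.71 in that order, beside -0.07, -0.10, -0.07 and -0.05 over all genes. The filter itself matters for such counts, because a gene that reaches 1 FPKM only where it is high has to differ. Gria1 and Gabrb1 reached it in (-) libraries only, and no member in (+) libraries only. Others, among them Grin1 and Gabrb2, reached it in 1 (+) library each and needed (-) libraries to pass.

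The split of calls over all genes depended on the scaling. With median-of-ratios scaling, 1794 genes were higher and 2277 lower at 0.2 µM for 12 h (1136 and 2710 without it), 2624 and 3017 at 0.5 µM for 12 h (1682 and 3599), 2500 and 2455 at 0.2 µM for 24 h (1523 and 3006), and 2724 and 2958 at 0.5 µM for 24 h (1893 and 3380). With 0.5 µM for 12 h, that scaling moved the median over all genes from -0.10 to 0.003. The members' counts under it were 3 higher and 11 lower, 3 and 14, 2 and 13, and 3 and 16. No call of a member in the 4 comparisons changed sign under any alternative tried, including this one.

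The groups of 3 libraries did not overlap for 19, 22, 17 and 21 of the 27 tested members in the same order of comparisons, beside 47%, 58.2%, 34% and 48.1% of all tested genes. Glutamate receptor genes gave no higher call, and 9, 12, 9 and 12 of the 15 tested were lower. Of the 8 tested GABA receptor genes, 2 were higher in every comparison and 1, 3, 3 and 4 were lower. Of the 4 tested acetylcholine receptor genes, 1, 1, 0 and 1 were higher and 2, 2, 1 and 1 were lower. Beside these counts, 8.23%, 12.2%, 11% and 13.7% of all genes were higher and 19.6%, 26.1%, 21.8% and 24.5% lower. The 1 of 8 GABA receptor genes lower at 0.2 µM for 12 h was under that share. The 1 of 4 acetylcholine receptor genes lower at 24 h was near it. In bulk RNA, fewer cells that make a transcript and less of it per cell cannot be told apart, which holds for every result here.

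**Figure D1:**
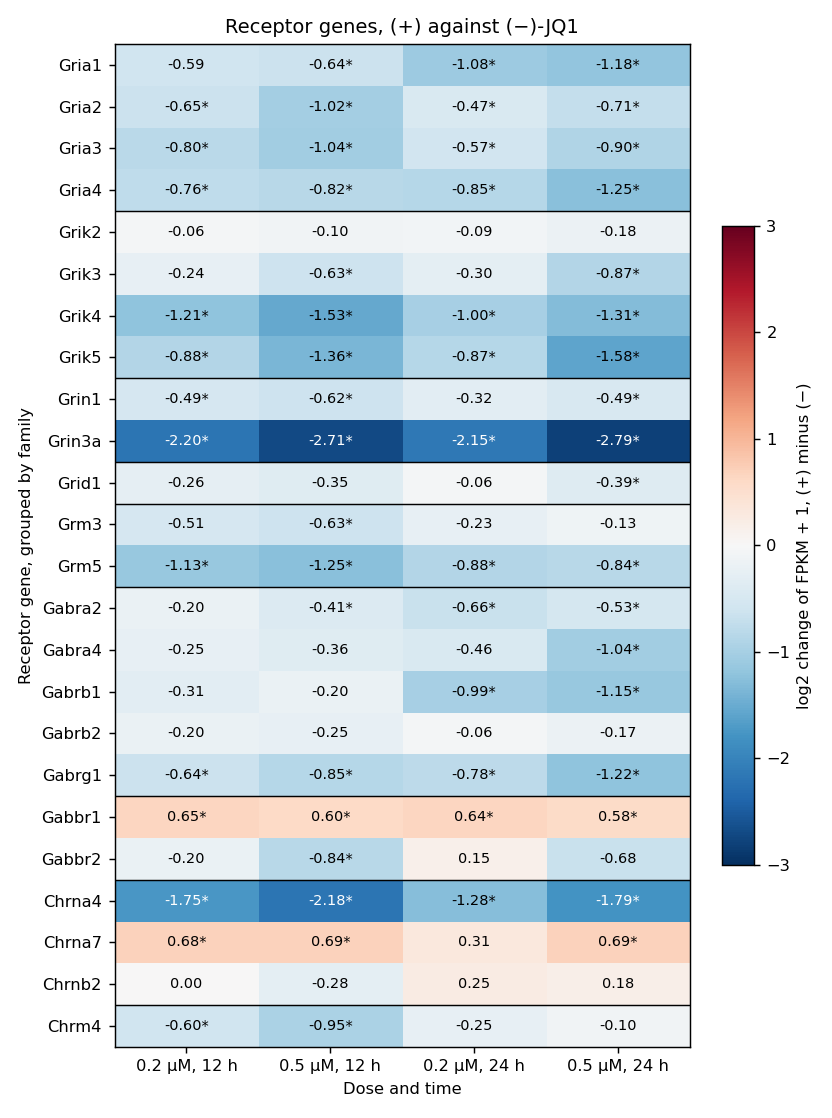
Log2 change in FPKM + 1 of 24 tested members, (+)-JQ-1 minus (-)-JQ-1, at each dose and time, grouped by receptor family; an asterisk marks a change that passed the test. Grin3a and Chrna4 hold the largest decreases, down to -2.79 and -2.18, while Gabbr1 was higher in all 4 columns.

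AMPA receptor subunits carry most fast excitatory transmission. All 4 of them fell in at least 3 comparisons, Gria1 with a limit from the filter given below. Gria2, the subunit that makes the channel nearly impermeable to calcium when its transcript is edited, had 14.2, 15.1 and 19.8 FPKM in the (+) libraries at 0.5 µM for 12 h and 30.7, 36.3 and 34.8 FPKM in the (-) libraries. The highest (+) library lay well under the lowest (-) library, and the log2 change was -1.02 ± 0.13 (SE; limma adjusted p = 1.67e-06). With both doses at 12 h given before both at 24 h, and the lower dose before the higher, an order kept below, the changes were -0.65, -1.02, -0.47 and -0.71, all past the threshold. Fitted to the 6 libraries of 0.2 µM for 24 h alone, that change of Gria2 had limma adjusted p = 0.0984. Gria2 made up a median of 69.2% of the summed AMPA subunit FPKM in (-) libraries and 74.8% in (+) libraries.

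Gria4 held 4.46, 5.07 and 4.29 FPKM with (+) and 13.3, 12.1 and 11.4 FPKM with (-) at 0.5 µM for 24 h, a log2 change of -1.25 ± 0.11 (limma adjusted p = 1.63e-08). Gria4 fell in all 4 comparisons, by -0.76, -0.82, -0.85 and -1.25. Gria3 held 1.61, 1.63 and 2.20 FPKM against 4.80, 3.51 and 6.22 FPKM at 0.5 µM for 12 h, a change of -1.04 ± 0.18 (limma adjusted p = 7.23e-05). The groups were apart for both genes. Gria3 fell in all 4 comparisons (-0.80, -1.04, -0.57 and -0.90), but at 0.2 µM for 24 h the call was lost without (+) replicate 1, (+) replicate 3 or (-) replicate 2 (limma adjusted p 0.0507 to 0.0938), with library weights (0.0828) and in the 6 libraries alone (0.0880). Gria1, best known as the subunit added to synapses during plasticity, was scarce. It reached 1 FPKM in 9 (-) libraries and in 0 (+) libraries, so it passed the filter through the group where it was high. Its changes and calls below are therefore a description. After 24 h of 0.5 µM, it held 0.290, 0.240 and 0.178 FPKM with (+) and 1.67, 2.01 and 1.72 FPKM with (-), a log2 change of -1.18 ± 0.22. The separation was complete at 24 h, while at both doses of 12 h the groups overlapped, because replicate 3 was the highest library in each of the 4 groups at 12 h. In the 0.5 µM, 12 h comparison, its change of -0.64 passed the test, but not without (+) replicate 1, (+) replicate 2 or (-) replicate 3 (limma adjusted p 0.0832 to 0.176) or in the 6 libraries alone (0.0550), and at 0.2 µM for 12 h it was -0.59 (limma adjusted p = 0.0514). That last change passed with the replicate number as a block (0.0271), with library weights (0.0376) and with pseudocounts of 0.1 (0.0445) and 0.5 (0.0465).

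Kainate receptors combine the subunits Grik1 to Grik3, which can form channels alone, with Grik4 and Grik5, which bind glutamate tightly and need a partner. The obligate partners Grik4 and Grik5 fell in all 4 comparisons. Grik5 held 7.68, 9.34 and 10.0 FPKM with (+) at 0.5 µM for 24 h, against 27.9, 26.1 and 32.6 FPKM with (-), a log2 change of -1.58 ± 0.15 (limma adjusted p = 2.97e-08). Its changes were -0.88, -1.36, -0.87 and -1.58. The largest value of Grik5 in any library, 44.0 FPKM, was in (-) replicate 1 at 0.2 µM for 24 h. Grik4 was scarcer, with 0.538, 0.587 and 0.417 FPKM against 3.58, 2.98 and 3.58 FPKM at 0.5 µM for 12 h, a change of -1.53 ± 0.12 (limma adjusted p = 2.16e-09). Grik4 changed by -1.21, -1.53, -1.0 and -1.31, and in every comparison its (+) libraries lay below its (-) libraries.

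Grik3 passed the test at 0.5 µM, with -0.63 at 12 h and -0.87 ± 0.13 at 24 h (limma adjusted p = 1.06e-05), where it held 11.3, 11.0 and 13.9 FPKM against 20.6, 20.3 and 28 FPKM. At 0.2 µM its changes were -0.24 (limma adjusted p = 0.184) and -0.30 (0.077), and the former passed with library weights (0.0429) and in its 6 libraries alone (0.0403). Grik2 passed no comparison, and at 0.5 µM for 24 h its change was -0.18 with a 95% interval of -0.44 to 0.09 (limma adjusted p = 0.295). The makeup of the family differed accordingly: Grik5 was a median of 48.9% of the summed kainate FPKM in (-) libraries and 35.2% in (+) libraries, while Grik2 was 16.3% and 24.9%. Grik1 was below the filter. Grik5 overlaps Zfp574, which reached 10.3 FPKM, in the annotation, and whether the counting used strand is not given in the sources used here.

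NMDA receptors need Grin1 together with Grin2 or Grin3 subunits, and Grin3a lowers calcium flow through the channel. Grin3a had the largest change of the tested members on the log2(FPKM + 1) scale. With 0.5 µM for 24 h, it held 0.629, 0.609 and 0.711 FPKM with (+) and 11.1, 8.88 and 11.4 FPKM with (-), means of 0.649 ± 0.054 and 10.5 ± 1.38 FPKM (SD, n = 3). That is 16.1-fold lower on the FPKM scale and -2.79 ± 0.15 on the log2(FPKM + 1) scale (limma adjusted p = 6.62e-12). All 12 (-) libraries were between 7.04 and 11.7 FPKM, and every (+) library was at or below 1.62 FPKM. The log2 changes were -2.20, -2.71, -2.15 and -2.79. Grin3a contains the annotated gene Ppp3r2, which did not exceed 0.274 FPKM.

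Grin1, the obligatory subunit, was near 1 FPKM. It reached that level in 11 (-) libraries and 1 (+) library. Grin1 thus passed the filter through (-) libraries, which limits its calls. It held 0.577, 0.684 and 0.668 FPKM with (+) and 1.75, 1.69 and 1.18 FPKM with (-) at 0.5 µM for 12 h, a log2 change of -0.62 ± 0.16 (limma adjusted p = 0.00359). Those groups did not overlap, whereas they did at 24 h. The changes of -0.49 at 0.2 µM for 12 h and -0.49 at 0.5 µM for 24 h also passed. The first was lost without (+) replicate 1 or 3 or (-) replicate 1 or 3 (limma adjusted p 0.0553 to 0.105), and the second without (+) replicate 1, (-) replicate 2 or (-) replicate 3 (0.0728 to 0.0998) or in its 6 libraries alone (0.0723). The summed FPKM of the 7 NMDA subunits ran from 9.67 to 15.8 over the (-) libraries and from 1.62 to 4.13 over the (+) libraries. Grin3a was a median of 77.9% of that sum with (-) and 38.5% with (+), while Grin3b, which was not tested, was 4.68% and 22%.

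**Figure D2:**
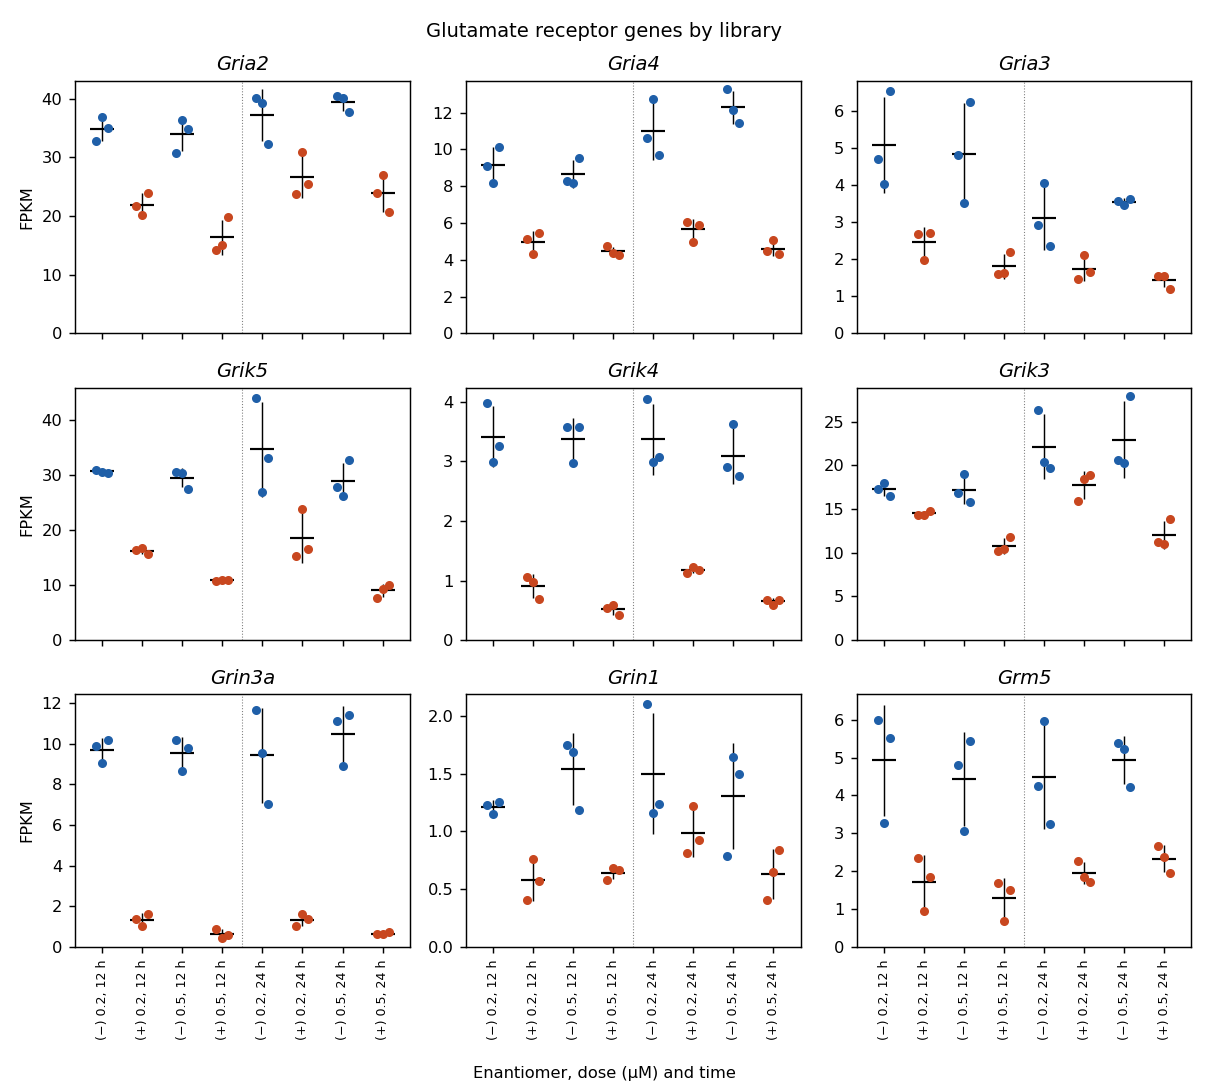
FPKM of glutamate receptor genes in each library by dose and time; blue dots are (-)-JQ-1, orange-red dots (+)-JQ-1, and black lines the mean ± SD of 3 libraries. The (+) libraries of Grin3a stay at or below 1.62 FPKM and its (-) libraries between 7.04 and 11.7 FPKM.

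Delta receptors are relatives of the glutamate channels that organise synapses by binding cerebellins. Grid1 held 7.58, 9.45 and 8.88 FPKM with (+) and 10.9, 10.5 and 13.5 FPKM with (-) at 0.5 µM for 24 h, a log2 change of -0.39 ± 0.15 (limma adjusted p = 0.0405). It passed in that comparison alone, and not without replicate 1 or 3 of either enantiomer (0.0560 to 0.177), with median-of-ratios scaling (0.132), with library weights (0.0635) or without the filter (0.0559). At 0.5 µM for 12 h, Grid1 changed by -0.35 and did not pass in the main fit. It passed there with library weights (limma adjusted p = 0.00793), in the 6 libraries alone (0.0410) and without 2 libraries described below (0.0425). Without (+) replicate 1 it passed there as well (0.0362).

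Of the 8 metabotropic glutamate receptors, 3 were tested, among them Grm3 and Grm5. Grm5, which is coupled to phospholipase C, fell in all 4 comparisons (-1.13, -1.25, -0.88 and -0.84). After 12 h of 0.5 µM, it held 1.69, 0.674 and 1.49 FPKM with (+) and 4.80, 3.05 and 5.44 FPKM with (-), a log2 change of -1.25 ± 0.23 (limma adjusted p = 0.000197). Replicate 2 was the lowest library of Grm5 in both groups. Its call at 0.2 µM for 24 h was lost with library weights (0.103). Grm3, an inhibitory receptor common in glia, held 4.31, 3.76 and 5.50 FPKM against 8.22, 5.66 and 8.93 FPKM at 0.5 µM for 12 h, a change of -0.63 ± 0.21 (limma adjusted p = 0.0192). The call was lost without replicate 1 or 2 of (+) or replicate 1 or 3 of (-) (0.0538 to 0.0940) and with median-of-ratios scaling (0.0528). At 0.2 µM for 12 h Grm3 did not pass in the main fit. With library weights its change there of -0.50 passed (limma adjusted p = 0.0382). So did -0.66 without (+) replicate 3 (0.0369) and -0.67 without (-) replicate 2 (0.0354). At 24 h the changes of Grm3 were -0.23 (limma adjusted p = 0.409) and -0.13 (0.657).

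Of the 13 GABA-A subunits, 6 were tested. Gabrg1, a gamma subunit found in glia and their precursors, fell in all 4 comparisons (-0.64, -0.85, -0.78 and -1.22). In the 0.5 µM, 24 h comparison, it held 2.61, 3.07 and 3.33 FPKM with (+) and 9.06, 9.36 and 6.70 FPKM with (-), and the log2 change was -1.22 ± 0.12 (limma adjusted p = 5.02e-08). Over all libraries Gabrg1 was a median of 26.3% of the summed GABA-A FPKM with (-) and 13.9% with (+). Gabrb1 held 0.104, 0.158 and 0.260 FPKM against 2.23, 1.2 and 1.46 FPKM at 0.5 µM for 24 h (-1.15 ± 0.15). It was lower at 24 h at both doses (-0.99 and -1.15). It reached 1 FPKM in 6 libraries, all of them (-) at 24 h, so it had to differ there and these changes are a description. At 12 h it was at or below 0.513 FPKM in every library, and its changes were -0.31 (limma adjusted p = 0.144) and -0.20 (0.319). With a pseudocount of 0.1 the change at 0.2 µM for 12 h was -1.28 and passed (limma adjusted p = 0.0206), and the groups did not overlap there.

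Gabra4, an alpha subunit that lies beside Gabrb1, held 1.53, 1.09 and 0.877 FPKM with (+) and 4.25, 3.73 and 2.46 FPKM with (-) at 0.5 µM for 24 h, a log2 change of -1.04 ± 0.19 (limma adjusted p = 0.000121), and passed in that comparison alone. At 0.2 µM for 24 h it passed without (+) replicate 1 (limma adjusted p = 0.0334) or (-) replicate 3 (0.00986). At 0.5 µM for 12 h it passed with a pseudocount of 0.1 (0.0259), library weights (0.0463) and in the 6 libraries alone (0.0481). The annotation lets Gabra4 and Gabrb1 overlap, so reads from these neighbours may not be fully separated. Gabra2, the alpha subunit typical of immature neurons, held 1.57, 1.69 and 2.06 FPKM against 3.14, 2.67 and 4.48 FPKM at 0.2 µM for 24 h, a change of -0.66 ± 0.15 (limma adjusted p = 0.0018). It also fell at 0.5 µM, by -0.41 at 12 h and -0.53 at 24 h. The call at 0.5 µM for 12 h was lost without replicate 1 or 2 of either enantiomer (limma adjusted p 0.05003 to 0.185), with median-of-ratios scaling (0.0821) and in the 6 libraries alone (0.0551). Gabrb2 passed no comparison, with -0.17 at 0.5 µM for 24 h (95% interval -0.42 to 0.08, limma adjusted p = 0.291).

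Both GABA-B subunits were tested. Gabbr1, which binds GABA, was higher with (+) in all 4 comparisons (0.65, 0.60, 0.64 and 0.58). With 0.2 µM for 12 h, it held 91.2, 60.3 and 73.5 FPKM with (+) and 52.2, 41.3 and 47.3 FPKM with (-), a log2 change of 0.65 ± 0.16 (limma adjusted p = 0.00379). Every (+) library exceeded every (-) library in each comparison, and leaving out any 1 library ended none of these calls. With library weights the call at 0.2 µM for 24 h was lost (limma adjusted p = 0.0680). Gabbr2, which couples the pair to G proteins, was lower at 0.5 µM for 12 h, with 8.07, 11.3 and 3.92 FPKM against 14.7, 17.6 and 9.74 FPKM (-0.84 ± 0.28, limma adjusted p = 0.0236). Those groups overlapped, since replicate 3 was the lowest in both. The call was lost without (+) replicate 3, (-) replicate 1 or (-) replicate 2 (0.0713 to 0.183), with median-of-ratios scaling (0.0563) and in the 6 libraries alone (0.15). Its other changes were -0.20 (limma adjusted p = 0.666), 0.15 (0.718) and -0.68 (0.0652). The last, at 0.5 µM for 24 h, passed with the replicate number as a block (limma adjusted p = 0.0243) and in the 6 libraries alone (0.00286). The groups did not overlap there. Gabbr1 was a median of 75.5% of the summed GABA-B FPKM with (-) and 86.3% with (+).

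Of the 13 nicotinic subunits, Chrna4, Chrna7 and Chrnb2 were tested. Chrna4, which with Chrnb2 forms the commonest nicotinic receptor of the brain, fell in all 4 comparisons (-1.75, -2.18, -1.28 and -1.79). After 12 h of 0.5 µM, it held 1.12, 1.10 and 1.07 FPKM with (+) and 8.53, 7.37 and 9.84 FPKM with (-), a log2 change of -2.18 ± 0.15 (limma adjusted p = 4.69e-10). No (+) library exceeded 2.37 FPKM and no (-) library was below 5.02 FPKM. Its partner Chrnb2 passed no comparison, with 0.18 at 0.5 µM for 24 h (95% interval -0.20 to 0.57, limma adjusted p = 0.476). Chrna4 was a median of 50.6% of the summed nicotinic FPKM with (-) and 16.1% with (+), and Chrnb2 was 29.5% and 45.3%. Chrnb2 overlaps Adar, which reached 13.1 FPKM.

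Chrna7, which forms calcium-permeable channels alone, was higher with (+). In the 0.5 µM, 24 h comparison, it held 1.91, 1.98 and 2.64 FPKM with (+) and 0.715, 1.05 and 1.14 FPKM with (-), a log2 change of 0.69 ± 0.21 (limma adjusted p = 0.0112). The groups were apart there and at 12 h. The changes were 0.68, 0.69, 0.31 and 0.69, and that of 0.31 at 0.2 µM for 24 h did not pass (limma adjusted p = 0.272), where (+) replicate 3 held 0.832 FPKM and (-) replicate 1 held 1.81 FPKM. Without (+) replicate 3, the change there was 0.61 and passed (limma adjusted p = 0.0151). Each call of Chrna7 rested on single libraries. With 0.2 µM for 12 h, it was lost without (+) replicate 1, (-) replicate 1 or (-) replicate 2 (limma adjusted p 0.0537 to 0.0989). After 12 h of 0.5 µM, it was lost without (-) replicate 1 (0.0532), and at 0.5 µM for 24 h without (+) replicate 3 or (-) replicate 1 (0.0550 to 0.0552).

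Chrm4 was the only tested muscarinic receptor, an inhibitory one. In the 0.5 µM, 12 h comparison, it held 1.47, 1.66 and 1.67 FPKM with (+) and 3.80, 4.28 and 4 FPKM with (-), a log2 change of -0.95 ± 0.14 (limma adjusted p = 1.95e-05). It also fell at 0.2 µM for 12 h, by 0.60 on the log2 scale (limma adjusted p = 0.00326). At 24 h the groups overlapped at both doses, and the changes were -0.25 (limma adjusted p = 0.188) and -0.10 (0.63). Without (-) replicate 3, the change at 0.2 µM for 24 h was -0.43 and passed (limma adjusted p = 0.0270). Chrm4 overlaps Mdk, which reached 121 FPKM, so without known strand some of its reads may belong to Mdk.

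**Figure D3:**
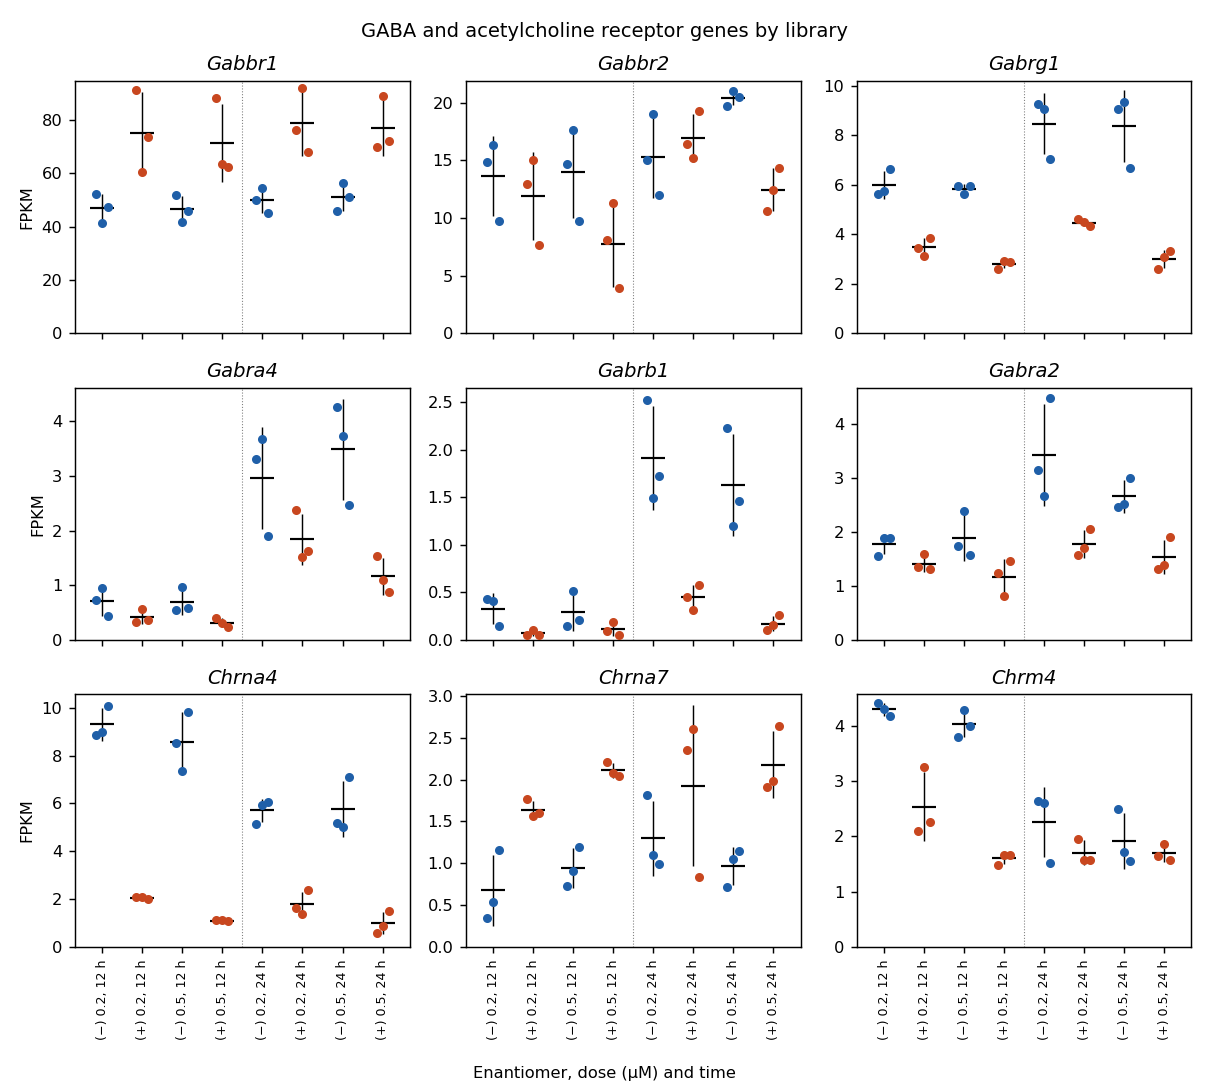
FPKM of GABA and acetylcholine receptor genes in each library by dose and time; blue dots are (-)-JQ-1, orange-red dots (+)-JQ-1, and black lines the mean ± SD of 3 libraries. Gabbr1 is higher with (+), while Chrna4 stays at or below 2.37 FPKM with (+) and at or above 5.02 FPKM with (-).

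**Figure D4:**
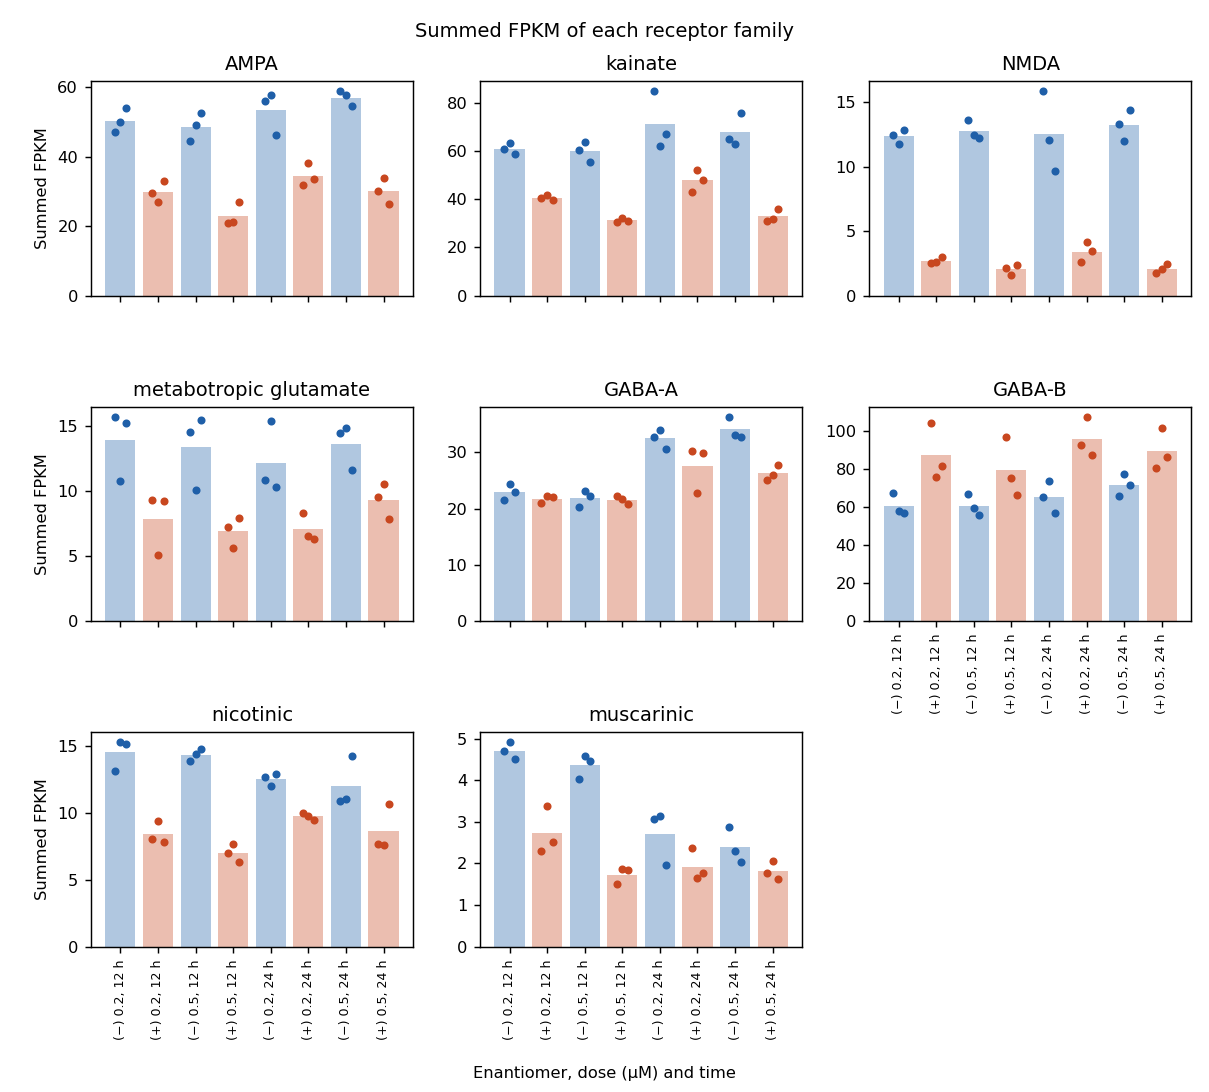
Summed FPKM of receptor families in each group; bars start at 0 and are means of 3 libraries, points are libraries, with (-)-JQ-1 in blue and (+)-JQ-1 in orange-red. The 7 NMDA subunits sum to 9.67 to 15.8 FPKM in (-) libraries and 1.62 to 4.13 FPKM in (+) libraries.

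Dose was compared within each enantiomer and as a difference of the enantiomer effect. Within (+)-JQ-1 at 24 h, 3 members were lower at 0.5 than at 0.2 µM, beside 2.05% of all genes lower and 2.15% called in either direction. Grik5 changed by -0.95 ± 0.15 (limma adjusted p = 0.000916), from 15.3, 23.8 and 16.6 FPKM to 7.68, 9.34 and 10.0 FPKM. Grik3 changed by -0.53 ± 0.13 (limma adjusted p = 0.0281) and Gabrg1 by -0.46 ± 0.12 (0.048). The call of Grik5 held with each library left out. That of Grik3 was lost without replicate 2 or 3 at 0.2 µM or replicate 1 or 2 at 0.5 µM (limma adjusted p 0.0954 to 0.149), and that of Gabrg1 without any (+) library at 24 h except replicate 3 at 0.5 µM (0.0850 to 0.259). At 12 h no member differed between the (+) doses, where 0.645% of all genes did, and 8 had an unadjusted limma p under 0.05.

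Within (-)-JQ-1 no member differed between doses. At 12 h none had an unadjusted limma p under 0.05 and at 24 h 1 had, with 0% and 0.00725% of all genes called. The 27 changes ran from -0.15 to 0.23 at 12 h and from -0.26 to 0.43 at 24 h, and the widest 95% bounds were -0.61 and 0.66 at 12 h and -0.64 and 1.00 at 24 h. No member passed the test for an enantiomer effect that differed between doses, with 3 members at an unadjusted limma p under 0.05 at 12 h and 8 at 24 h, beside 0.0435% and 0.29% of all genes called. The effect on Grik5 at 24 h differed by -0.71 (95% interval -1.15 to -0.27, limma adjusted p = 0.285) and that on Grik3 by -0.57 (-0.94 to -0.20, limma adjusted p = 0.352). Without (-) replicate 1 at 0.2 µM for 24 h, the difference of Grik5 was -0.89 and passed (limma adjusted p = 0.0453).

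No member passed the test for an enantiomer effect that differed between 12 and 24 h either, with 3 at an unadjusted limma p under 0.05 at 0.2 µM and 5 at 0.5 µM, beside 0.0217% and 0.326% of all genes called. The lowest adjusted p was that of Gabrb1 at 0.5 µM, where the effect at 24 h minus that at 12 h was -0.94 (95% interval -1.39 to -0.50, limma adjusted p = 0.0659). That difference passed without (-) replicate 2 at 12 h (0.0434) or (-) replicate 2 at 24 h (0.0431). Gabrb1 passed the filter through (-) libraries at 24 h alone, so its difference is a description. Chrm4 had a difference of 0.85 at 0.5 µM (95% interval 0.43 to 1.27, limma adjusted p = 0.0903), and it passed without (-) replicate 1 at 24 h (0.0449).

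Over time in differentiation medium with (-)-JQ-1, averaged over doses, 9 members were higher and 4 lower at 24 than at 12 h, beside 11% and 4.62% of all genes. Gabra4 ran from 0.432 to 0.976 FPKM at 12 h (median 0.657, 6 libraries) and from 1.91 to 4.25 FPKM at 24 h (median 3.49), a log2 change of 1.29 ± 0.13. Its neighbour Gabrb1 ran from 0.146 to 0.513 FPKM (median 0.310) and from 1.2 to 2.53 FPKM (median 1.61), a change of 1.07 ± 0.11. For both genes the times did not overlap. Both reached 1 FPKM at 24 h only, Gabrb1 in (-) libraries only, so they passed the filter through the libraries where they were high and had to differ, and their changes over time are a description. Fitted with no filter on low values, both were called higher at 24 h as well. Gabra2 (0.50), Gabrg1 (0.44), Grik3 (0.36), Gria4 (0.35) and Grik2 (0.28) were among the other genes with a higher level at 24 h on the log2 scale. Chrm4 went from a median of 4.23 FPKM (3.80 to 4.42) to 2.10 FPKM (1.52 to 2.63), a change of -0.76 ± 0.10 (limma adjusted p = 2.81e-05). Chrna4 went from 8.91 FPKM (7.37 to 10.1) to 5.54 FPKM (5.02 to 7.12), a change of -0.56 ± 0.11 (limma adjusted p = 0.00115). Gria3 (-0.45) and Grm3 (-0.44) were the other 2 lower genes.

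Some of these time calls rested on single libraries. Gria3 was lost without (-) replicate 3 at 12 h of either dose (limma adjusted p 0.0555 to 0.0563). Grik2 was lost without any of 8 (-) libraries, replicates 1 and 3 of both doses at 12 h, replicates 2 and 3 at 0.2 µM for 24 h and replicates 1 and 2 at 0.5 µM for 24 h (0.0592 to 0.102). Grm3 was lost without any of 9, replicates 1 and 3 of both doses at 12 h, replicates 1 and 3 at 0.2 µM for 24 h and all 3 at 0.5 µM for 24 h (0.0644 to 0.108). Chrm4 and Chrna4 passed with each library left out.

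Within (+)-JQ-1, 4 members were higher at 24 than at 12 h and none lower, beside 8.81% and 3.69% of all genes. Gabra4, with the same limit from the filter, changed by 0.85 ± 0.13, from a median of 0.35 FPKM (0.240 to 0.575) to 1.53 FPKM (0.877 to 2.37). Chrnb2 changed by 0.58 ± 0.13 (limma adjusted p = 0.00503), Gria2 by 0.40 ± 0.09 (0.00553) and Gabbr2 by 0.61 ± 0.20 (0.0493). Of these 4 genes, Gabra4 alone was also called in the (-) libraries, and the differences between the enantiomers' time changes are those tested above. The call of Gabbr2 was lost without any of 10 of the 12 (+) libraries, all but replicate 2 at 12 h of each dose (0.0579 to 0.137).

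**Figure D5:**
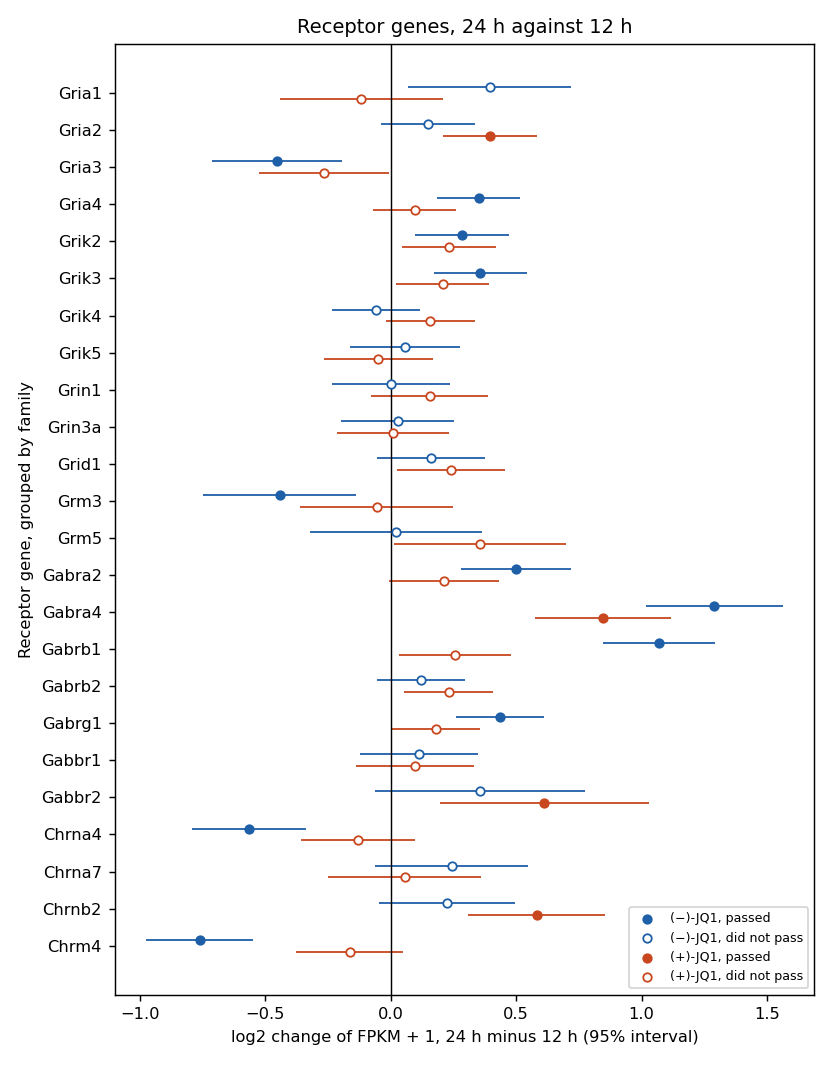
Log2 change in FPKM + 1 from 12 to 24 h, averaged over both doses, within (-)-JQ-1 (blue) and (+)-JQ-1 (orange-red), with 95% intervals; filled points passed the test. Gabra4 is 1.29 with (-) and 0.85 with (+), and Gabrb1 is 1.07 with (-).

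The 33 members below the filter did not reach 1 FPKM in 3 libraries and were not tested in the main fit. Their low values limit what can be compared. Chrna6 and Chrna9 were at 0 in every library. Chrnb3 (up to 0.0186 FPKM), Chrna10 (0.037), Gabra6 (0.038), Chrm5 (0.0559), Grm6 (0.0601), Chrna2 (0.0771) and Gabrd (0.102) were above 0 in 1 to 6 libraries each. Chrna3 (up to 0.166 FPKM), Chrm3 (0.173), Grm2 (0.197), Grin2d (0.218), Chrm1 (0.247) and Chrm2 (0.37) ran from 0. So did Grin2a (up to 0.533 FPKM), Gabrg3 (0.586), Grm4 (0.675), Grin2c (0.728) and Grm7 (0.792). Grin2b, the main Grin2 subunit of the embryonic brain, ran from 0.0137 to 0.271 FPKM. Chrnb4 (0.13 to 0.275 FPKM), Gabra3 (0.063 to 0.586), Grik1 (0.0477 to 0.588), Chrna1 (0.299 to 0.689) and Chrnb1 (0.0448 to 0.722) were above 0 in all 24 libraries. The same held for Chrna5 (0.0951 to 0.919 FPKM), Grm8 (0.162 to 0.94), Grin3b (0.288 to 1.09) and Gabra5 (0.0346 to 1.71).

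With the filter at 0.3 FPKM and a pseudocount of 0.1, an alternative that lets 14 of these genes in, Grin2c and Grm7 were lower in all 4 comparisons. Grin2c held 0.0366, 0.0186 and 0.0183 FPKM with (+) and 0.537, 0.423 and 0.496 FPKM with (-) at 0.5 µM for 24 h, a log2(FPKM + 0.1) change of -2.23 ± 0.33. It entered through (-) libraries only, since no (+) library exceeded 0.0744 FPKM, so it had to differ and its values are a description. Grm7 held 0.0216, 0.0657 and 0.0432 FPKM against 0.792, 0.582 and 0.628 FPKM, a change of -2.42 ± 0.28. Both genes were apart between the enantiomers in that comparison. Of the (+) libraries, only replicate 1 at 0.2 µM for 24 h reached 0.3 FPKM of Grm7, at 0.442 FPKM. Grm7 thus also entered through (-) libraries, and its values are a description too. Gabra5 was lower at both doses of 12 h and at 0.5 µM for 24 h (-1.20, -1.20 and -1.24). At 0.5 µM for 24 h, Gabra3 (-0.88), Grm4 (-1.28), Grin2a (-1.55) and Chrnb1 (-1.17) were among others called lower. These last genes did not reach 0.3 FPKM in 3 (+) libraries, so their values are a description as well. Of the 15867 genes tested this way, 1944 were higher and 3952 lower at 0.5 µM for 24 h. Chrna5 was higher at 0.2 µM for 12 h, with 0.506, 0.582 and 0.612 FPKM against 0.0951, 0.167 and 0.159 FPKM (1.48 ± 0.31, limma adjusted p = 0.0012), and Grm8 was higher at both doses of 12 h (0.99 and 0.76). These genes were named after their values were seen.

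Genes that make, move or anchor around these transmitters were compared from fixed lists. Of all genes, 8.23%, 12.2%, 11% and 13.7% were higher in the 4 comparisons and 19.6%, 26.1%, 21.8% and 24.5% lower. Of 29 tested glutamate partners, 4, 6, 4 and 4 were higher and 14, 16, 10 and 13 lower. With 0.5 µM for 24 h, the largest changes were in Slc1a1, a neuronal glutamate transporter (-2.45 ± 0.10, limma adjusted p = 8.5e-14), Nptx1, a pentraxin that clusters AMPA receptors (-2.29 ± 0.10, 1.64e-13), and Slc38a1, a glutamine transporter (-1.38 ± 0.10, 3.22e-10). Of 15 tested GABA partners, 3, 3, 2 and 3 were higher and 5, 5, 5 and 6 lower. The largest changes there were in Gad2, which makes GABA (-1.56 ± 0.25, limma adjusted p = 3.28e-05), Slc6a11, a glial GABA transporter (-1.13 ± 0.30, 0.00484), and Slc32a1, which loads GABA into vesicles (-1.07 ± 0.18, 7.3e-05). Of 8 tested acetylcholine partners, 0, 1, 1 and 1 were higher and 2 lower in each comparison, near the shares of all genes. They were led by Bche, which breaks down acetylcholine (-1.44 ± 0.13, limma adjusted p = 2.41e-08), Ly6h, which binds nicotinic receptors (-1.38 ± 0.32, 0.00164), and Agrn, which gathers them at the muscle endplate (0.72 ± 0.24, 0.0216). Of 14 receptor subunits outside the rule, such as those of glycine receptors, Glrb alone was tested, and it passed no comparison.

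Markers of cell types moved with the enantiomers. The counts below stand beside the same shares of all genes as those of the partners. The summed FPKM of 10 oligodendrocyte lineage markers ran from 415 to 1195 over the 12 (+) libraries and from 1504 to 2141 over the 12 (-) libraries, and 7, 8, 6 and 8 of the 9 tested were lower. That of 8 astrocyte markers ran from 683 to 1368 with (+) and from 1097 to 1894 with (-), and 4, 6, 4 and 5 of the 7 tested were lower. Neural stem and radial glia markers, 8 in number and the defining ones for NPCs, summed to 4086 to 7091 with (+) and 2869 to 5087 with (-), and 4, 5, 2 and 6 of them were higher and 0, 0, 1 and 1 lower. The 9 neuron markers summed to 158 to 324 with (+) and 137 to 247 with (-), with 3, 4, 2 and 2 higher and 3, 5, 1 and 2 lower. Several receptors that fell, among them Gabrg1, Gria4, Grik4 and Grm5, are known in oligodendrocyte precursors as well as neurons. The part of these cell types in the changes of the receptors was not tested. The 8 pericyte, fibroblast and muscle markers summed to 23 to 66.8 FPKM with (+) and 61.1 to 156 FPKM with (-), and 3, 4, 4 and 4 of the 4 tested were lower. Such sums can be led by 1 gene. The highest single value was 4859 FPKM among stem and radial glia markers and 223 FPKM among neuron markers. It was 145 FPKM among pericyte, fibroblast and muscle markers, where 3 genes stayed under 1 FPKM in every library. All 8 microglia markers stayed under 1 FPKM, with Aif1 and C1qa at 0 in every library, as did 5 of the 6 endothelium markers, with Cldn5 and Cdh5 at 0.

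Across the 24 libraries the FPKM summed to between 432235 and 871177, and 16987 to 18243 genes were above 0. The number of reads per library is not given in the sources used here, and steps in the low values put the depth of the deepest library at 1.12 times that of the shallowest. In 2 libraries, (+) replicate 2 and (-) replicate 1 at 0.2 µM for 24 h, Mir5105 took 42.7% to 46.9% of the FPKM sum, against at most 6.69% elsewhere. Without both, 2 members were higher and 13 lower at 0.2 µM for 24 h, the same numbers as with them. Hexim1, a gene known to rise under BET inhibitors, was higher with (+) in all 4 comparisons (1.52, 1.88, 1.30 and 1.67), and Myc, a gene known to fall, was lower (-1.13, -1.52, -1.41 and -2.14).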

How the data were processed

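Poly(A) RNA libraries of 24 NPC cultures were sequenced as single-end reads. Per the submitters' processing notes, FastQC and TopHat2 were used with the mm9 genome; which program made the values is not given in the sources used here. Deposited by the authors was 1 table of FPKM values per library with 26694 rows, of which 58 rows of 29 repeated symbols were left out. Computed from these were log2(FPKM + 1) values of the 13801 genes with at least 1 FPKM in 3 libraries. limma 3.58.1 in R 4.3.3 (empirical Bayes with trend and robust) was fitted with 8 group means and 16 residual degrees of freedom, and p-values were Benjamini-Hochberg adjusted over all tested genes. A change past 0.05 was called. Log changes on this scale understate those of low genes. The fit was tested on simulated data. Per-library values were given for members called in at least 1 of the 4 comparisons of enantiomers, at the dose and time of the largest change. For members never called the change at 0.5 µM for 24 h was given, and for those below the filter the range. Of each list of partners, the 3 called genes with the largest change at 0.5 µM for 24 h were named. A few members enter the counts but are not reported here by name. The members and lists were chosen with earlier results of these data known. Of the 60 members, 41 matched a promoter in the RefSeq table.

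Alternatives were other pseudocounts (0.1 and 0.5), no filter, a filter of 0.3 FPKM with a pseudocount of 0.1, median-of-ratios scaling, a replicate block, library weights, omission of the 2 libraries with high Mir5105, no trend or robust step, the 6 libraries of a comparison alone, and each library left out.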

Additional observations from a re-analysis of the deposited data

How the results depend on the processing

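Of 70 calls of members in the 4 comparisons of enantiomers, 51 held under every alternative, 16 were lost when some library was left out, 12 under another setting and 19 under either, and none reversed. Without the filter, all members but the 2 at 0 in every library were tested. Of them, 5 were higher at 0.2 µM for 12 h and 5 at 0.5 µM for 12 h. At 24 h, 20 were lower with 0.2 µM and 27 with 0.5 µM, and 1 had a time-dependent effect at 0.5 µM. Of all 21650 genes then tested, 1090 and 1695 were higher and 3580 and 4097 lower in the same order. With a filter of 0.3 FPKM and a pseudocount of 0.1, 5 members were higher and 19 lower at 0.2 µM for 12 h. At 0.5 µM for 24 h, 26 members were lower. Of the 15867 genes then tested, 1155 were higher and 3045 lower at 0.2 µM for 12 h. At 0.5 µM for 24 h, 3952 of them were lower. By (+) dose, 1 and 7 members differed at 12 and 24 h, and 7 by time within (+). A pseudocount of 0.1 alone gave 1 and 6 by (+) dose at 12 and 24 h. Library weights gave 1 higher at 0.2 µM for 24 h, 2 time-dependent effects at 0.5 µM, 4 by (+) dose at 12 h and 9 by time within (+). The 6 libraries alone gave 1 higher at 0.2 µM for 24 h. Median-of-ratios scaling gave 1 by (+) dose at 24 h. Omission of the 2 libraries with high Mir5105 gave 1 time-dependent effect at 0.5 µM and 1 by (+) dose at each time. More or fewer genes entered without the filter or with another; the cause of the other differences was not tested.

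With each library left out in turn, members higher and lower numbered 1 to 2 and 10 to 13 at 0.2 µM for 12 h, 2 to 3 and 13 to 16 at 0.5 µM for 12 h, 1 to 2 and 12 to 15 at 0.2 µM for 24 h, and 1 to 3 and 15 to 18 at 0.5 µM for 24 h. A dose-dependent effect at 24 h was called for 0 to 1 members, a time-dependent effect at 0.5 µM for 0 to 1, a (+) dose difference at 24 h for 1 to 5, a time difference within (-) for 10 to 13 and within (+) for 3 to 5.

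Same-numbered libraries deviated together in part: of 12 pairs of same-numbered libraries, 7 had a correlation of deviations over 0.1, and the correlations ran from -0.345 to 0.358. All 3 pairs were over 0.1 at 0.2 µM for 12 h (0.105 to 0.133), and not all 3 in any of the other 3 comparisons. For replicates 1 to 3 the correlations were -0.023, 0.358 and 0.179 at 0.5 µM for 12 h. They were -0.196, -0.345 and -0.004 at 0.2 µM for 24 h, and 0.046, 0.166 and 0.292 at 0.5 µM for 24 h. Differently numbered pairs were all below 0 at 0.2 µM for 12 h (-0.093 to -0.023). At 0.2 µM for 24 h, (+) replicate 2 with (-) replicate 1, the libraries with high Mir5105, had 0.395, above every same-numbered pair. There (+) replicate 3 with (-) replicate 2 had 0.297. These values do not settle which libraries the numbers pair, and the main fit paired none. With the replicate number as a block, 3 members were higher and 13 lower at 0.2 µM for 12 h, 3 and 17 at 0.5 µM for 12 h, 2 and 15 at 0.2 µM for 24 h, 3 and 18 at 0.5 µM for 24 h, and 1 differed by (+) dose at 12 h. At 0.2 µM for 12 h the block changed the call of Gria1 alone among the named members. With the block, Gabra4 also passed at 0.2 µM for 24 h (limma adjusted p = 0.0202) and Gabbr2 at 0.5 µM for 24 h (0.0243). Depth limits the members under 1 FPKM.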
